A study of Mus musculus with 4 samples.

Results

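The glycolysis, pentose phosphate and citric acid cycle genes of isolated mouse islets were followed from low to high glucose. Members were every row of the deposited expression table whose gene name was on a list of 46 enzyme names. For a gene with several rows, the row with the highest mean over the 4 libraries was kept. The list gave 45 genes of the 24157 genes and lncRNAs in the table: 17 of glycolysis, 6 of the pentose phosphate pathway, 19 of pyruvate entry and the citric acid cycle, and 3 enzymes of the glycerol phosphate shuttle and of glutamate oxidation. Pyruvate kinase M stood in the table as *Pkm*, and the older name Pkm2 had no row.

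The 4 RNA-seq libraries were made from whole islets of 3-month-old male C57bl6 mice, a wild-type inbred strain, with 2 libraries at 2.8 mM glucose and 2 libraries at 16.8 mM glucose. Before the split, all islets were kept overnight in 11 mM glucose and then for 2 h in 2.8 mM glucose, as the methods of the study describe. The sources disagree on the time at the final concentration, which is 2 h (low glucose) and 12 h (high glucose) in the labels of the samples but 12 h for both groups in the text of the series and in the methods. If the labels are right, time and glucose cannot be told apart. Islets hold beta, alpha and other cells together, and in such bulk RNA a change in the number of cells of a type cannot be told apart from a change in RNA per cell.

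Glycolysis breaks glucose down to pyruvate in the cytosol, the pentose phosphate pathway takes off glucose 6-phosphate to make NADPH and pentoses, and the citric acid cycle oxidises the acetyl groups made from pyruvate in the mitochondrion. In beta cells the flow of glucose through glycolysis and the mitochondrion raises ATP, which closes potassium channels and starts insulin secretion. Beta cells make little lactate dehydrogenase, so pyruvate goes mainly to the mitochondrion, where pyruvate carboxylase and pyruvate dehydrogenase compete for it.

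The upstream windows of 3 members are shown, from glycolysis genes that rose and from the largest change in the cycle. Both glycolysis windows come from genes with a match to the letters marked, so they do not stand for all that rose. *Pgk1* (chrX:106186850-106187099, plus strand) and *Pgam1* (chr19:41911621-41911870, plus strand) rose with the other glycolysis genes, and *Fh1* (chr1:175625636-175625885, minus strand) had the largest fold change of all members. Each run holds the 250 bases before the transcription start in RefSeq on GRCm38.p6, 5′ to 3′ on the strand of the gene, and capitals mark ACGTG or its reverse complement CACGT.
Pgk1: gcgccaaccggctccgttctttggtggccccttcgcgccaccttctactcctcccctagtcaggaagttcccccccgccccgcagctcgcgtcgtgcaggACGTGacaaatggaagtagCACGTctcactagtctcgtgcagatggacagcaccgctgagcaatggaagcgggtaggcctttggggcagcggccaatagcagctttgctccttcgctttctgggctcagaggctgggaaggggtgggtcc
Pgam1: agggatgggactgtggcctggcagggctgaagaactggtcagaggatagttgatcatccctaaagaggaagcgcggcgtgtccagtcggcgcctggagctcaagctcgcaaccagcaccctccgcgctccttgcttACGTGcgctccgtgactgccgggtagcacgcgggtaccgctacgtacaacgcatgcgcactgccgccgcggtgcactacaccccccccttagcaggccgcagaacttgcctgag
Fh1: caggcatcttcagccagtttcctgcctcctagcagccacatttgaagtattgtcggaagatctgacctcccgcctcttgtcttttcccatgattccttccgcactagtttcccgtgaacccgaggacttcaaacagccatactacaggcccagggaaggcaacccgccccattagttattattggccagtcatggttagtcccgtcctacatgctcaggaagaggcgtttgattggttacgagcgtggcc

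The letters ACGTG are 1 form of the core of the element bound by hypoxia-inducible factors, and the longer CACGTG, which contains it, is an E-box. The form GCGTG was not searched, so a count of 0 does not mean that a window lacks such a core. As printed above, the *Fh1* and *Pgam1* windows do hold the letters GCGTG. The *Pgk1* window held 2 matches to ACGTG on either strand, the *Pgam1* window held 1 and the *Fh1* window held 0. Of the 12 glycolysis members that rose, 5 carried ACGTG in such a window (*Pfkfb3*, *Aldoa*, *Pgk1*, *Pgam1* and *Pkm*), against 2 of the 5 other glycolysis members, 0 of 6 pentose phosphate members, 5 of 18 of pyruvate entry and the cycle, 1 of 2 shuttle and glutamate members and 18.5% of all 27025 genes with a window. CACGTG was found in 1 of the 12, in 2 of the 5 other glycolysis members and in 6.86% of all genes. RefSeq windows were found for 43 members, and *Idh3a* and *Gpd1* had no entry. A match of letters is a description of the window and not a binding site.

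The libraries held 50800000 to 60710000 reads. Values are RPKM, reads per kilobase of transcript and per megaread of library, which the authors divided by the whole genomic span of a transcript, introns included, so they lie far below RPKM over exons. A transcript was tested when its mean over the 4 libraries reached 1 RPKM, and it was taken to have risen or fallen when the Benjamini-Hochberg adjusted p of limma on log2(RPKM + 0.5) was under 0.05. Among 7867 transcripts tested, 10.7% were higher and 22.8% lower at 16.8 mM glucose, 33.4% in all, and the median log2 fold change was -0.11. Higher calls made up 31.9% of all calls, 44.1% after centring each library on its median and 42.3% after quantile normalization. Except where voom is named, log2 fold changes are on the log2(RPKM + 0.5) scale, which understates the change of genes near or below 1 RPKM, and folds are ratios of mean RPKM with nothing added.

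The islet label was borne out by its hormones, which were the most abundant markers in every library. Of 8 beta cell markers 6 rose (*Ins1*, *Ins2*, *Iapp*, *Mafa*, *Pdx1* and *Ucn3*), beside 10.7% of all transcripts. Of alpha cell markers, 0 of 4 tested passed in limma, with 1 at an unadjusted p under 0.05. Acinar markers, genes of digestive enzymes, summed to 61.5 and 178 RPKM at 2.8 mM and to 152 and 333 RPKM at 16.8 mM, and all 7 stood above 0 in every library. Of the 6 tested 0 passed in limma, though 4 had an unadjusted p under 0.05, with log2 fold changes of 1.03 to 1.25 over the 6. Of the 3 duct markers *Spp1* rose (log2 fold change 0.67, adjusted p 0.036 in limma), *Krt7* fell (-0.55, adjusted p 0.015) and *Krt19* had 1.15 at an adjusted p of 0.073. The duct sums were 40.2 and 35.2 RPKM at low and 40.8 and 46.4 RPKM at high glucose. Summed endothelial markers reached at most 4.23 RPKM, leukocyte markers 14.2 RPKM and stromal markers 3.4 RPKM. The part of these cells in the results below was not tested.

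Most of the glycolysis genes rose at high glucose. Of its 17 members 16 were tested, 12 rose by 1.54- to 4.46-fold and 2 fell, beside the 10.7% and 22.8% of all transcripts. The median log2 fold change of the 17 was 1.12. The 12 that rose cover every reaction from glucose 6-phosphate to pyruvate, each through at least 1 enzyme. *Pfkp*, *Pfkfb3* and *Pklr* reached the mean of 1 RPKM only through the group in which they were high, so their calls carry no weight of their own. With at least 1 RPKM required in every library, 10 glycolysis members rose and 1 fell, beside 12.6% higher and 27% lower of the 6909 transcripts then tested. The calls also depend on having a minimum. With none, 28047 transcripts were tested, 2.96% were higher, and 10 of the 12 had an adjusted p of 0.051 to 0.19 in limma, while *Pfkfb3* and *Pkm* passed.

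**Figure D1:**
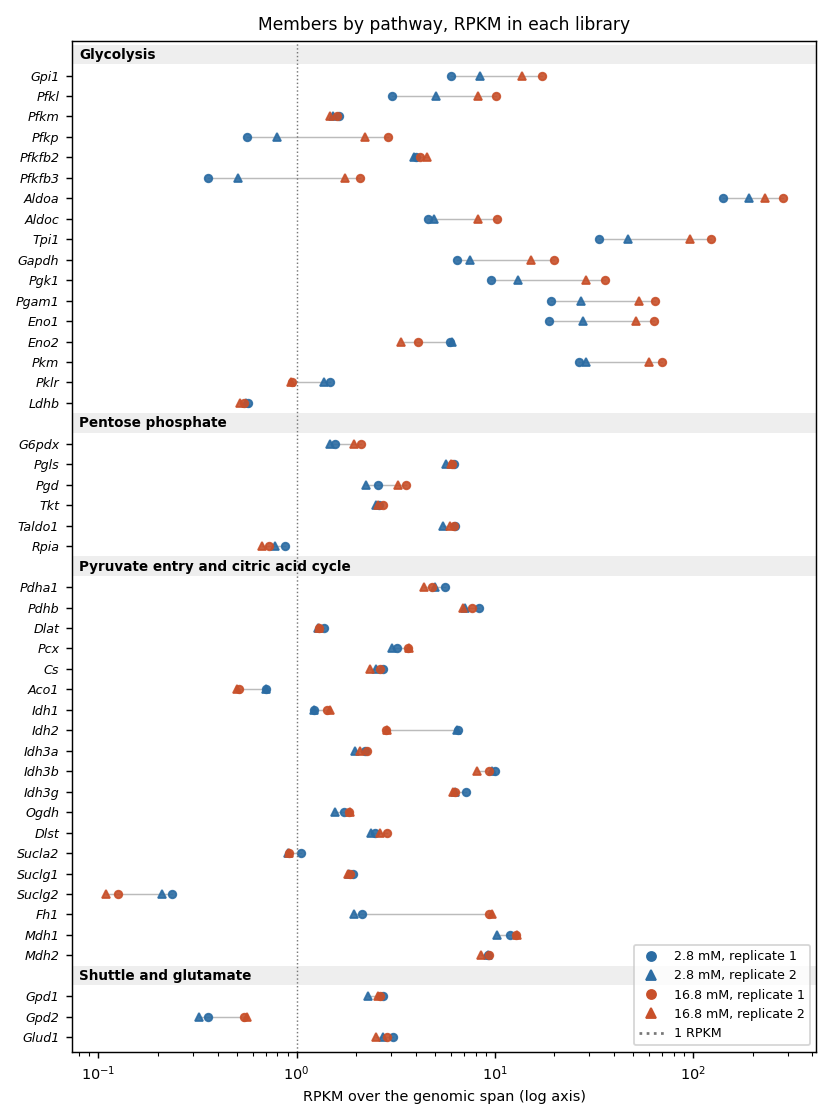
RPKM over the genomic span (log axis) of the 45 members in each of the 4 libraries, by pathway; circles are replicate 1 and triangles replicate 2, blue 2.8 mM and orange 16.8 mM glucose, and the dotted line marks 1 RPKM. For the 12 glycolysis members that rose all orange points lie right of the blue ones, while in pyruvate entry and the cycle *Fh1* lies far to the right and *Idh2* far to the left at 16.8 mM. *Suclg2* and *Aco1*, both under 1 RPKM, also lie further left at 16.8 mM.

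In the preparatory phase, phosphoglucose isomerase, which turns glucose 6-phosphate into fructose 6-phosphate, came first. *Gpi1* measured 6.02 and 8.38 RPKM at 2.8 mM and 17.3 and 13.7 RPKM at 16.8 mM. It rose 2.15-fold, a log2 fold change of 1.06 ± 0.18 (SE) with an adjusted p of 0.0058 in limma. Both libraries at high glucose stood above both at low glucose, and this held for each of the 12 genes. As the 12 were called on these same values, this adds no support of its own. The share of all transcripts with groups apart was not counted.

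Phosphofructokinase, which commits sugar to glycolysis, is made from 3 genes that behaved differently. *Pfkl*, the liver type, went from 3.02 and 5.06 RPKM to 10.1 and 8.26 RPKM, a log2 fold change of 1.12 ± 0.21. *Pfkp*, the platelet type, went from 0.56 and 0.799 RPKM to 2.88 and 2.22 RPKM, 3.75-fold higher (log2 fold change 1.37 ± 0.14). *Pfkm*, the muscle type, which has been tied to oscillating glycolysis in beta cells, gave 1.64 and 1.52 RPKM against 1.59 and 1.47 RPKM. Its groups overlapped and its log2 fold change of -0.04 had a 95% interval of -0.23 to 0.16.

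The PFKFB enzymes make and break the sugar phosphate that activates phosphofructokinase. *Pfkfb3*, the form with the strongest kinase side, went from 0.357 and 0.509 RPKM to 2.1 and 1.76 RPKM. Its fold of 4.46 was the largest in glycolysis (log2 fold change 1.38 ± 0.11), and its other distinct row gave a log2 fold change of 0.89. *Pfkfb2* measured 3.99 and 3.93 RPKM at low and 4.21 and 4.56 RPKM at high glucose. The groups of *Pfkfb2* did not overlap, yet the log2 fold change of 0.13 had an interval of -0.10 to 0.36, and its row is that of a non-coding transcript of the gene.

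Aldolase splits fructose bisphosphate, and triose phosphate isomerase interconverts the products. *Aldoa*, the most abundant member, measured 142 and 191 RPKM at 2.8 mM and 283 and 231 RPKM at 16.8 mM. Its rise of 1.54-fold was the smallest of the 12 (log2 fold change 0.63 ± 0.18, adjusted p 0.038 in limma). That call was lost without replicate 1 of the 2.8 mM group (adjusted p 0.074) or of the 16.8 mM group (0.16), and after median centring (0.054). *Aldoc*, its brain-type counterpart, went from 4.59 and 4.95 RPKM to 10.3 and 8.21 RPKM, a log2 fold change of 0.88 ± 0.13. *Tpi1* went from 33.7 and 46.9 RPKM to 123 and 96.9 RPKM, a 2.73-fold rise (log2 fold change 1.45 ± 0.20, adjusted p 0.0027 in limma).

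In the phase that pays back ATP all 5 steps rose through their main enzyme by 2.33- to 2.86-fold. *Gapdh*, which oxidises the triose and is often used as a reference gene, measured 6.48 and 7.54 RPKM at low and 20 and 15.3 RPKM at high glucose (log2 fold change 1.26 ± 0.16). *Pgk1*, the first ATP-yielding kinase, rose from 9.60 and 13.1 RPKM to 36.1 and 28.9 RPKM (log2 fold change 1.49 ± 0.18, adjusted p 0.0018 in limma). With 0.5 RPKM added this was the largest log2 fold change in glycolysis. In the ratio of mean RPKM, *Pfkfb3* (4.46-fold) and *Pfkp* (3.75-fold) rose more than *Pgk1* (2.86-fold). *Pgam1*, the mutase, went from 19.2 and 27.2 RPKM to 64.6 and 53.1 RPKM (log2 fold change 1.34 ± 0.19). *Gapdh*, *Pgk1* and *Pgam1* thus moved by much the same factor along the chain. *Eno1*, the general enolase, went from 18.8 and 27.9 RPKM to 63.4 and 51.4 RPKM (log2 fold change 1.30 ± 0.21). *Pkm*, which forms pyruvate, went from 26.7 and 29.0 RPKM to 70 and 60.1 RPKM (log2 fold change 1.21 ± 0.14, adjusted p 0.0014 in limma).

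The 2 members that fell are tissue-type forms of those last steps. *Eno2*, the enolase of neurons and endocrine cells, fell from 5.92 and 6.11 RPKM to 4.11 and 3.38 RPKM (log2 fold change -0.62 ± 0.12, adjusted p 0.008 in limma). *Pklr*, the liver and red cell pyruvate kinase and in liver a textbook gene induced by glucose, fell from 1.48 and 1.38 RPKM to 0.945 and 0.932 RPKM (log2 fold change -0.42). With no minimum RPKM, *Eno2* had an adjusted p of 0.07 in limma. *Ldhb*, a lactate dehydrogenase, stayed under the minimum, with 0.569 and 0.555 RPKM against 0.54 and 0.521 RPKM, and was not tested.

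Several of these genes have copies elsewhere in the genome or neighbours on top of them, and how the authors' counting shared such reads was not tested. Of the 12 that rose, 8 had other stretches of the genome with at least 90% identity over at least 50% of the transcript: 122 for *Gapdh*, 5 for *Eno1*, 4 each for *Aldoa*, *Pgam1* and *Pkm*, 2 each for *Tpi1* and *Pgk1*, and 1 for *Gpi1*. *Pfkl*, *Pfkp*, *Pfkfb3* and *Aldoc* had none and rose as well. The span of *Tpi1* overlaps *Spsb2*, which rose by a log2 fold change of 0.50, and that of *Pfkp* overlaps *Pitrm1*, which fell by 0.41 on the log2 scale. *Pklr* overlaps *Hcn3*, which went from 1.24 and 1.25 RPKM to 0.736 and 0.634 RPKM and was not tested.

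**Figure D2:**
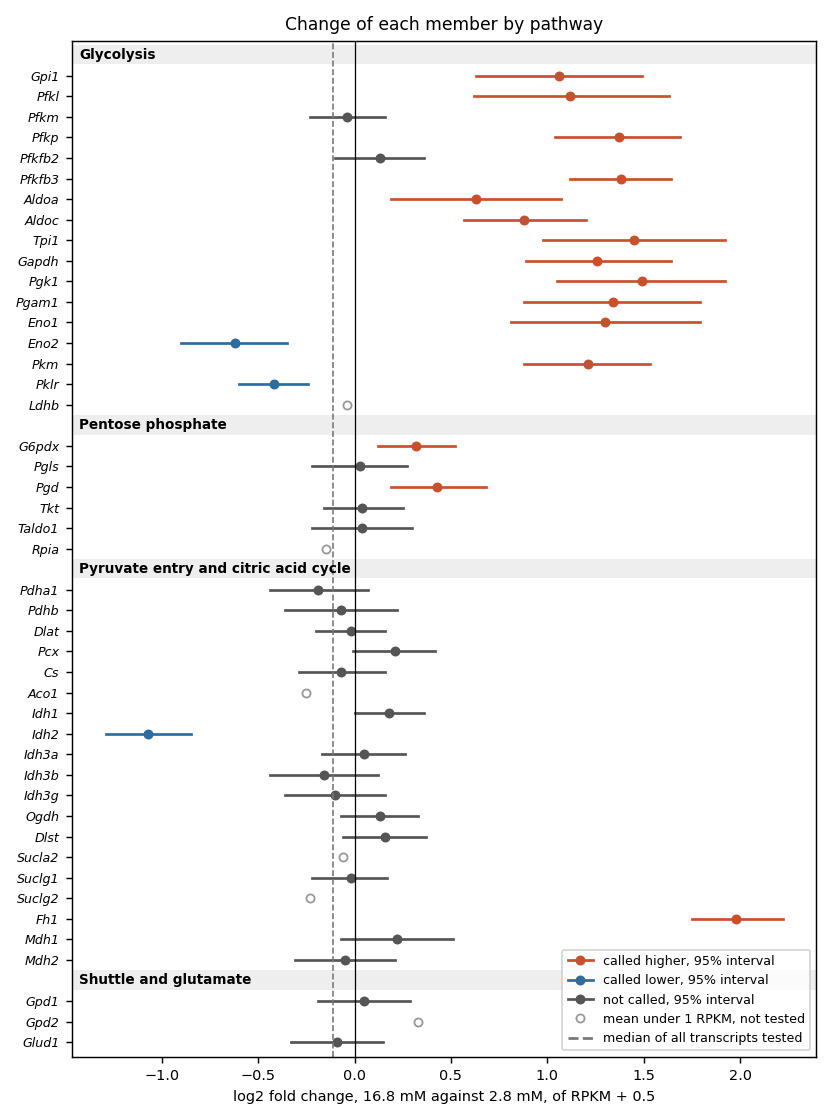
Log2 fold change of RPKM + 0.5, 16.8 mM against 2.8 mM glucose, for each member by pathway; filled points carry 95% intervals from limma, open points had a mean under 1 RPKM and were not tested, and the dashed line is the median of all transcripts, -0.11. The 12 glycolysis members that rose lie between 0.63 and 1.49, and among pyruvate entry and the cycle *Fh1* at 1.98 and *Idh2* at -1.07 stand clear of the rest.

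Within each group the 12 risen genes also varied together. In the 2.8 mM group replicate 2 stood above replicate 1 for all 12, by 0.10 to 0.66 on the log2(RPKM + 0.5) scale with a median of 0.43. In the 16.8 mM group replicate 1 stood above replicate 2 for all 12, by a median difference of -0.31 (replicate 2 minus replicate 1, -0.38 to -0.20). Both differences were seen in 1 of the 33 other members, *Eno2*, in 11.3% of all transcripts tested and in 17.5% of the 838 transcripts called higher. The groups of these 12 genes did not overlap. The higher low-glucose library is then nearer to the high-glucose group by arithmetic, and the lower high-glucose library nearer to the low-glucose group. Acinar markers ordered the libraries in another way, as all 7 were higher in replicate 2 of both groups. What set these differences between the libraries was not tested.

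**Figure D3:**
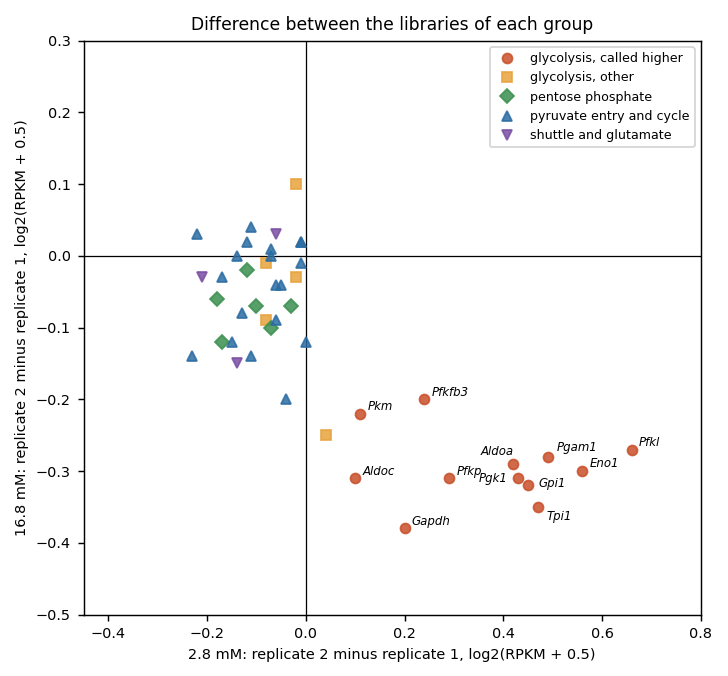
Difference between replicate 2 and replicate 1 on the log2(RPKM + 0.5) scale in the 2.8 mM group (x axis) and in the 16.8 mM group (y axis), 1 point per member. The 12 glycolysis members that rose (orange circles) fill the lower right corner. The 33 other members lie between -0.23 and 0.04 on the x axis, 1 of them in that corner. On the y axis they lie between -0.25 and 0.1, which overlaps the range of the 12.

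Other genes of glycolysis from a list of 18 were mostly too low to be tested. Of the 5 tested 3 rose and 0 fell, beside 10.7% and 22.8% of all transcripts. *Eno3* was lower at an unadjusted p of 0.021 in limma. *Ldha*, the lactate dehydrogenase of fast glycolysis, went from 1.82 and 3.81 RPKM to 10.7 and 9.39 RPKM (log2 fold change 1.74 ± 0.26, adjusted p 0.0038 in limma). *Pgm2*, a phosphoglucomutase, went from 0.766 and 0.887 RPKM to 1.83 and 1.56 RPKM, and passed the minimum only through the high group. Both genes had the same order of libraries as the 12 members.

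The 2 dehydrogenases of the pentose phosphate pathway, which make NADPH, rose modestly. Of 6 members 5 were tested, 2 rose and 0 fell in limma, beside the 10.7% higher and 22.8% lower of all transcripts, and 0 of the 5 had a lower value at an unadjusted p under 0.05. *G6pdx*, glucose-6-phosphate dehydrogenase, the entry to the pathway, measured 1.57 and 1.48 RPKM at 2.8 mM and 2.12 and 1.94 RPKM at 16.8 mM. It rose 1.33-fold (log2 fold change 0.32 ± 0.08, adjusted p 0.027 in limma). *Pgd*, the other dehydrogenase, went from 2.57 and 2.23 RPKM to 3.58 and 3.25 RPKM, a 1.42-fold rise (log2 fold change 0.43 ± 0.10, adjusted p 0.019 in limma). For both genes the groups did not overlap.

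Both calls depended on single libraries. Without replicate 2 of the 2.8 mM group neither passed (*G6pdx* adjusted p 0.14, *Pgd* 0.087), *G6pdx* also failed without replicate 1 of either group (0.073 and 0.071), and with no minimum RPKM both failed. Between them in the pathway lies the lactonase *Pgls*, with 6.19 and 5.65 RPKM against 6.09 and 5.99 RPKM and overlapping groups. The enzymes that shuffle carbon between sugars were likewise flat: *Tkt*, transketolase, measured 2.59 and 2.53 RPKM at low and 2.73 and 2.58 RPKM at high glucose. *Taldo1*, transaldolase, measured 6.30 and 5.49 RPKM at low and 6.21 and 5.92 RPKM at high glucose. The 95% intervals of the log2 fold changes of these 3 genes reached from -0.22 to 0.30. *Rpia*, ribose phosphate isomerase, lay under the minimum, with 0.873 and 0.781 RPKM against 0.725 and 0.67 RPKM. Of 8 other genes of the pathway 3 were tested and 2 fell, beside 22.8% of all transcripts. *Rpe*, the epimerase, fell by 0.54 and *Prps1*, which makes phosphoribosyl pyrophosphate, by 0.39 on the log2 scale.

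In pyruvate entry and the citric acid cycle *Fh1* rose, *Idh2* fell and 14 tested members did not pass. Of 19 members 16 were tested, 1 rose and 1 fell, or 6.25% each way, below the 10.7% higher and 22.8% lower of all transcripts. The median log2 fold change of the 19 was -0.05.

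*Fh1*, fumarate hydratase, turns fumarate into malate, in the cycle and in the cytosol (chromosome 1, 177530505 to 177555766 on mm9, minus strand, 10 exons). It measured 2.14 and 1.95 RPKM at 2.8 mM and 9.40 and 9.72 RPKM at 16.8 mM. The gap between the groups was far larger than that between their libraries. The rise of 4.67-fold was the largest of the 45 members (log2 fold change 1.98 ± 0.10, adjusted p 6.2e-05 in limma). Among the 7867 transcripts tested it ranked 30 by signed log2 fold change, which counts rises only. By p, which counts changes either way, it ranked 24. Leaving out each library in turn gave log2 fold changes of 1.93 to 2.04. *Kmo*, which overlaps its span, had at most 0.0013 RPKM, and no copy of *Fh1* was found elsewhere in the genome. Its neighbours in the cycle did not share the rise: of the subunits of succinate dehydrogenase, which makes fumarate, *Sdha* to *Sdhd* had log2 fold changes of -0.26, -0.31, 0.08 and 0.13, and 0 passed in limma, with unadjusted p under 0.05 for *Sdha* (0.034) and *Sdhb* (0.023).

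*Idh2*, the mitochondrial NADP-dependent isocitrate dehydrogenase, moved the other way (chromosome 7, 87239732 to 87260278 on mm9, minus strand, 11 exons). It measured 6.54 and 6.48 RPKM at 2.8 mM and 2.81 and 2.86 RPKM at 16.8 mM. It fell 2.30-fold (log2 fold change -1.07 ± 0.09, adjusted p 0.00054 in limma). The libraries of each group differed by less than 0.1 RPKM. *Idh1*, its cytosolic counterpart, gave 1.23 and 1.22 RPKM against 1.43 and 1.47 RPKM. Its groups did not overlap, its log2 fold change was 0.18 ± 0.08 and its adjusted p 0.11 in limma.

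Of the enzymes at the entry, the pyruvate dehydrogenase subunits lay slightly lower or level. *Pdha1* measured 5.59 and 5.01 RPKM at low and 4.80 and 4.38 RPKM at high glucose, *Pdhb* 8.32 and 7.04 against 7.66 and 6.92 RPKM, and *Dlat* 1.37 and 1.28 against 1.30 and 1.30 RPKM. *Pcx*, pyruvate carboxylase, measured 3.21 and 3.03 RPKM at low and 3.66 and 3.69 RPKM at high glucose, with groups apart and an adjusted p of 0.121 in limma. *Pdk1*, a kinase that switches pyruvate dehydrogenase off, is no member and rose from 1.09 and 1.54 RPKM to 2.83 and 2.43 RPKM (log2 fold change 0.79 ± 0.13, adjusted p 0.0055 in limma), in the library order of the 12 glycolysis genes. It was the only 1 of 9 tested, among 15 other genes of the complex and the cycle, that passed, beside 33.4% of all transcripts.

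Around the cycle, citrate synthase *Cs* measured 2.74 and 2.51 RPKM at low and 2.63 and 2.35 RPKM at high glucose. The subunits of the NAD-dependent isocitrate dehydrogenase, *Idh3a*, *Idh3b* and *Idh3g*, had log2 fold changes of 0.05, -0.16 and -0.10. *Ogdh* and *Dlst*, subunits of oxoglutarate dehydrogenase, had 0.13 and 0.16. *Suclg1*, the shared subunit of succinyl-CoA ligase, had -0.02, and the malate dehydrogenases *Mdh1* (cytosolic) and *Mdh2* (mitochondrial) had 0.22 and -0.05. Over the 14 members that did not pass, log2 fold changes ran from -0.19 to 0.22 and their 95% intervals from -0.44 to 0.51. After median centring, which called 21.1% of all transcripts higher, 6 of the 14 passed as higher (*Pcx*, *Idh1*, *Idh3a*, *Ogdh*, *Dlst* and *Mdh1*). After quantile normalization, with 20% of all transcripts higher, 5 of these passed, without *Idh3a*.

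A further 3 members of the cycle were too low to be tested. *Aco1*, the cytosolic aconitase, measured 0.704 and 0.697 RPKM at 2.8 mM and 0.511 and 0.501 RPKM at 16.8 mM. *Suclg2*, the GTP-forming subunit of succinyl-CoA ligase, measured 0.236 and 0.209 RPKM at low and 0.125 and 0.109 RPKM at high glucose. The groups of both genes did not overlap. *Sucla2*, the ATP-forming subunit, measured 1.05 and 0.903 RPKM at low and 0.918 and 0.913 RPKM at high glucose, and its groups overlapped. Divided by such long spans, many reads give a low value, as 1365 to 3398 reads per library fell on *Suclg2*. On reads rebuilt from RPKM, *Suclg2* had a log2 fold change of -0.93 ± 0.11 (adjusted p 2.7e-06) and *Aco1* of -0.47 ± 0.10 (adjusted p 0.0011) in limma-voom, against -0.09 ± 0.10 for *Sucla2*. In that fit 29.1% of all 18333 transcripts were lower and 13.5% higher.

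The glycerol phosphate shuttle carries reducing power from glycolysis into the mitochondrion. *Gpd1*, its cytosolic enzyme, measured 2.73 and 2.29 RPKM at low and 2.64 and 2.58 RPKM at high glucose, with overlapping groups. *Gpd2*, its mitochondrial enzyme, abundant in beta cells, measured 0.358 and 0.321 RPKM at low and 0.541 and 0.564 RPKM at high glucose. It lay under the minimum and was not tested. On rebuilt reads its log2 fold change was 0.70 ± 0.10 (adjusted p 1.8e-05 in limma-voom). *Glud1*, glutamate dehydrogenase, measured 3.07 and 2.74 RPKM at low and 2.86 and 2.53 RPKM at high glucose, with overlapping groups and a log2 fold change of -0.09.

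The balance between related enzymes was read from 10 pairs of genes, isozymes, alternative subunits or cytosolic and mitochondrial counterparts. In each pair the 2 libraries at high glucose lay on 1 side of the 2 at low glucose in the log2 ratio of RPKM. Most pairs hold a gene already called on these same values, so their separation adds no support of its own. How often other pairs of genes lie apart was not counted. An exact permutation test of 2 against 2 libraries cannot go below a two-sided p of 0.333, which each pair had (0.333 after adjustment over the 10). The ratio of *Eno1* to *Eno2* changed by 2.01 on the log2 scale and that of *Pkm* to *Pklr* by 1.83. The ratio of *Pfkm* to *Pfkp* changed by -1.97, and that of *Pfkfb2* to *Pfkfb3* changed by -2.03. *Idh1* to *Idh2* changed by 1.45, and *Mdh1* to *Mdh2* by 0.28, the smallest.

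**Figure D4:**
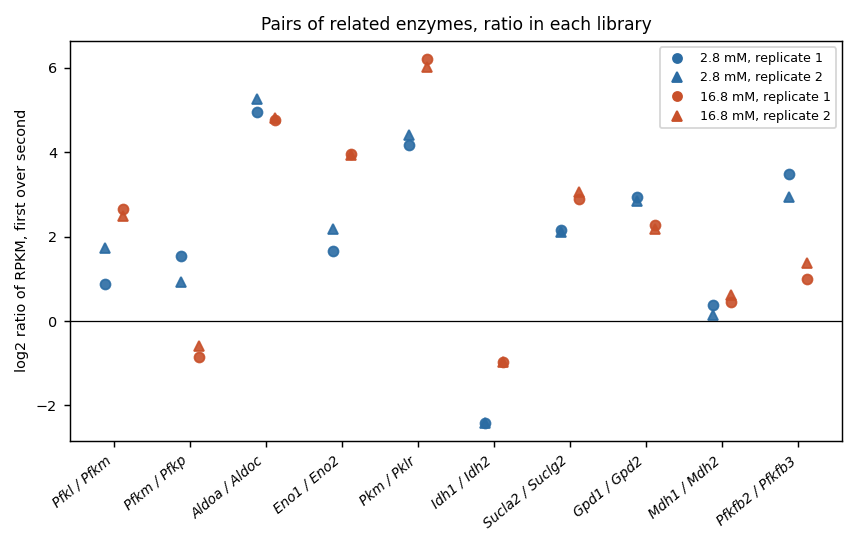
Log2 ratio of RPKM of the first over the second gene of 10 pairs of related enzymes, in each library; circles are replicate 1 and triangles replicate 2, blue 2.8 mM and orange 16.8 mM glucose. The groups lie apart in every pair, by 2.01 for *Eno1* over *Eno2* and by 0.28 for *Mdh1* over *Mdh2*. Values are over genomic spans of unequal length, so the side of 0 does not say which gene has more transcripts.

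To compare levels between genes, reads rebuilt from RPKM were divided by exon length, on the assumption that all of them fall in exons. On this exon scale *Aldoa* stood at a mean of 595 RPKM at 2.8 mM and 918 RPKM at 16.8 mM, the highest of the 45, and *Pkm* followed with 286 and 667 RPKM. *Eno1* (137 and 338 RPKM) and *Pgk1* (103 and 296 RPKM) came next. *Gapdh*, with its many copies, had 25.4 and 64 RPKM. The highest exon-scale levels of the cycle were those of *Mdh1* (80.2 and 93.7 RPKM), *Idh2* (76.7 and 33.4 RPKM) and *Mdh2* (75.6 and 73 RPKM), and at high glucose *Fh1* (19.6 and 91.6 RPKM) stood beside *Mdh1*.

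Exon-scale levels also show which form of an enzyme dominated. *Pfkl* made up 46.7% and 56.1% of the 3 phosphofructokinase transcripts at low and 51% and 51.6% at high glucose, so its share overlapped. *Pfkm* went from 29.8% and 19.8% to 9.46% and 10.8%, and *Pfkp* from 23.5% and 24.1% to 39.6% and 37.6%. *Eno2* made up 15.6% and 11.3% of the 2 enolases at low and 3.66% and 3.7% at high glucose. *Pklr* was a minor form throughout, with 1.98% and 1.71% of both pyruvate kinases at low and 0.49% and 0.563% at high glucose. *Idh1* made up 16.3% of the pair with *Idh2* in each low-glucose library, and 34.6% and 34.7% at high glucose.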

How the data were processed

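The deposited table gives RPKM values, 1 column per library, which the authors made for RefSeq transcripts and their own lncRNAs on mm9. The submitters' processing notes name STAR, bedtools and DESeq without versions or settings. Tested on the table, the RPKM of 145 lncRNAs were whole reads (within 0.1 read) for 99.3% to 100% of values at depths of 50800000 to 60710000 reads over the genomic span, which gives the divisor and the depth. For coding genes the spans used here (GENCODE M1, mm9) gave whole reads for 13 of 45 members, so rebuilt reads and exon-scale values are approximate. Rebuilt reads were 468 to 96862 per member and library.

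Of 33923 entries 28047 were distinct. The 7867 whose mean reached 1 RPKM were fitted with limma (version 3.58.1, R 4.3.3) on log2(RPKM + 0.5) with a variance trend, 2 residual degrees of freedom and Benjamini-Hochberg adjustment over all of them. The script was first tested on simulated data. Copies were sought with blastn (version 2.17.0). Overlapping genes come from the same annotation, and the counting is not stated to use strand. The numbers 1 and 2 name libraries. The paper states that the control islets were taken from the same pool as the stimulated ones. Nothing given here says that the replicates came from separate animals. The p-values therefore measure the spread between these libraries, which may be technical, and not a spread between animals. All members were named, and for other lists the genes that passed, at most 4 per list. Of the genes on the other lists that passed, 1 is not reported here by name. The members and all gene lists were chosen with earlier results of these data known. Alternatives were another added constant, no or a stricter minimum, median centring, quantile normalization, no variance trend, a replicate block, 1 entry per gene, voom on rebuilt reads and leaving out each library. The log2 ratio of mean RPKM with nothing added and the other rows of a gene were added after seeing the data.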

Additional observations from a re-analysis of the deposited data

How the results depend on the processing

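With 2 libraries per group, a gene that did not pass is not shown to be level. Of all transcripts 2628 passed in limma, against 2039 to 2734 when 1 library was left out (the lone library of a group is then assumed to vary like the other group) and 7805 of 18333 with voom on rebuilt reads. With no minimum RPKM, 4 members rose (15 in the main result), of which 2 of glycolysis and 0 of the pentose phosphate pathway, and 1 glycolysis member fell (2 in the main result), with 2 of the cycle lower. Requiring at least 1 RPKM in every library left 13 members higher, 10 of them in glycolysis, and 1 glycolysis member lower, since *Pfkp*, *Pfkfb3* and *Pklr* were then not tested. Cycle members called higher were 7 after median centring, 6 after quantile normalization and 3 with voom, against 1 in the main result, and with voom 3 cycle members and 5 of all members were lower. Leaving out 1 library gave 12 to 14 members higher and 0 to 2 pentose phosphate members higher, 10 to 12 in glycolysis (*Pfkfb3* fell under the minimum without either 16.8 mM library), and the same 3 lower members in count. No member that passed changed its direction under any alternative run. Nothing added before the log moved *Fh1* to 2.22, *Pfkfb3* to 2.16 and *Pfkp* to 1.91. The cause of these shifts was not tested.

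The replicate numbers 1 and 2 are shared by the groups, but nothing in the labels says that they pair the libraries, and deviations of same-numbered libraries correlated at 0.31 over 2 pairs, across transcripts. With the replicate block 4067 transcripts passed in limma, 16 members rose and 4 fell, with 3 higher and 2 lower in the cycle and 11 higher in glycolysis, where *Aldoa* had an adjusted p of 0.087. *Pcx* and *Idh1* passed as higher and *Pdha1* as lower.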

Other observations

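Genes of glucose production were read from a list of 7. *G6pc2*, the islet glucose-6-phosphatase catalytic subunit, measured 27.5 and 25.9 RPKM at 2.8 mM and 177 and 202 RPKM at 16.8 mM, a 7.08-fold rise (log2 fold change 2.80 ± 0.14, adjusted p 6.1e-05 in limma). *Fbp1*, fructose bisphosphatase, which works against phosphofructokinase, rose from 0.853 and 0.768 RPKM to 1.34 and 1.52 RPKM (log2 fold change 0.55 ± 0.09), and passed the minimum only through the high group. *Fbp2*, another form of it, was too low to be tested and went from 0.0414 and 0.0385 RPKM to 0.606 and 0.478 RPKM, 13.6-fold higher. Of the 4 tested 2 rose and 0 fell, beside 10.7% of all transcripts. None of the 3 genes had the library order of the 12 glycolysis genes, as replicate 1 was the higher library at 2.8 mM for each.

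Of 17 names of carriers and shuttle enzymes 8 genes were tested, 2 rose and 2 fell, beside 10.7% and 22.8% of all transcripts. *Slc16a3*, a lactate exporter that is low in beta cells, went from 0.243 and 0.484 RPKM to 2.33 and 1.94 RPKM (log2 fold change 1.62 ± 0.14) in the library order of the 12, and passed the minimum only through the high group. *Acly*, which splits exported citrate, went from 20.9 and 19.9 RPKM to 28.8 and 29.0 RPKM. *Got1*, the cytosolic transaminase of the malate and aspartate shuttle, fell from 2.82 and 2.61 RPKM to 1.20 and 1.18 RPKM (log2 fold change -0.93 ± 0.08, adjusted p 0.00058 in limma). *Mpc2*, a subunit of the mitochondrial pyruvate carrier, fell by 0.29 on the log2 scale and passed the minimum only through the low group. Of the 8 genes on these and the other pathway lists that rose, 4 had that library order: *Ldha*, *Pgm2*, *Pdk1* and *Slc16a3*.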
